A study of Mus musculus with 4 samples.

Results

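Sema4d, which encodes a semaphorin ligand, and Plxnb3, which encodes a plexin receptor, were followed in mouse spinal cord that had lost Sip1 from the oligodendrocyte lineage. Both genes were taken from the authors' deposited table of transcripts that differed by a fold of at least 1.45 between the groups, where each symbol stood on 1 row. They are 2 of the 369 genes that this table names, and the table was made from the same arrays. Their differences between the groups are therefore given as a description, with no test. A transcript cluster without a gene name, 10409236, whose identifier lies 4 below that of the Sema4d cluster, is described beside them.

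RNA came from whole spinal cord at postnatal day 14 and was measured on 4 microarrays, 1 for each biological replicate. The 2 Sip1 cKO samples had the genotype Sip1c/c;Olig1-Cre, with both copies of Sip1 floxed. Sip1 is now named Zeb2 and encodes a zinc finger transcription repressor. The 2 control samples were littermates of the genotype Sip1c/+;Olig1-Cre, so that they carried the same Cre and kept 1 unfloxed copy, and all animals had a c57.129 mixed background. How many animals made up a sample is not given in the labels. Cre expressed from Olig1 acts in cells of the oligodendrocyte lineage, and the other cells of the cord are not its main target. Each array gave 35557 values on a log2 scale, 1 per transcript cluster, which is the unit that groups the probes of a transcript on this array.

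Semaphorins are secreted or membrane-bound proteins that steer growing axons and migrating cells, mostly by repulsion, and plexins are their receptors. The intracellular part of a plexin acts on small GTPases of the Ras and Rap families and so changes the actin cytoskeleton and adhesion. Sema4d, also known as CD100, spans the membrane and can be shed, binds plexin B1 and, on immune cells, CD72, and in the central nervous system is found on oligodendrocytes and can inhibit axon outgrowth. Plexin B3 is expressed in white matter oligodendrocytes and is known as a receptor for Sema5a, so that the pair are a ligand and a receptor of the same cells without being each other's best known partner.

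Since both genes were lower in the same arrays, the sequence around their start sites is shown. The windows run from 250 bases before to 50 bases after a start site in the RefSeq table of GRCm38.p6, in which both genes were found, Plxnb3 with 1 start site and Sema4d with 3. Of these, the window of Plxnb3 at chrX:73756853-73757152 (plus strand) and that of Sema4d at chr13:51748761-51749060 (minus strand) are printed because they alone held a match to any of 6 short motifs. The capitals mark the matches, and each sequence reads 5′ to 3′ on the strand of its gene.
Plxnb3: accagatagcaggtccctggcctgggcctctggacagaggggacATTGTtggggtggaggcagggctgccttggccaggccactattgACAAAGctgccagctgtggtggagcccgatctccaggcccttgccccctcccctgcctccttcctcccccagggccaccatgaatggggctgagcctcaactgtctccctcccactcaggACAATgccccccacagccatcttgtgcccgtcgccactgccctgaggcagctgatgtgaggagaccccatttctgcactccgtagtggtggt
Sema4d: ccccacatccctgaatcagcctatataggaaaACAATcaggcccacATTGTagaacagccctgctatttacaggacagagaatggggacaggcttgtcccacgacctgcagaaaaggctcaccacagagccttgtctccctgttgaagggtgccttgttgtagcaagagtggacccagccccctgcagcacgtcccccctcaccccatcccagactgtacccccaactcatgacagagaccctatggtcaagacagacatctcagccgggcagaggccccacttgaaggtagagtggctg

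The motifs were searched on both strands. ACAAT, a core bound by Sox factors, occurred once on each strand in both printed windows. It was held by 31.0% of the 32851 windows searched, which were not all those in the table. ACAAAG, another Sox core, occurred once in the Plxnb3 window and in 18.7% of the windows searched. CACCTG and CACCT are cores that Zeb factors bind, and the first contains the second. They occurred in no window of either gene, against 20.2% and 51.9% of the windows searched. CTGGCAC and CTGGTAC, cores bound by Myrf, occurred in no window of either gene, against 5.01% and 2.24% of the windows searched. The other 2 start sites of Sema4d held none of the 6 motifs. Which start site is used in the cord was not analysed here, and the letters alone do not say whether a factor binds.

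Zeb2, the targeted gene, read 8.61 and 8.66 in the Sip1 cKO arrays, against 10.29 and 10.47 in the control arrays. Its log2 difference was -1.75, and each array followed its label. Zeb2 was named through the authors' table, which was chosen by fold on these arrays, so this order is not independent of the selection. Where its probes lie relative to the floxed part was not analysed here.

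Sema4d read 7.99 and 7.89 on the log2 scale in the Sip1 cKO arrays, against 10.54 and 10.65 in the control arrays. Both Sip1 cKO arrays lay below both control arrays, and the arrays within a group were close to each other. The mean was 7.94 ± 0.07 in Sip1 cKO cord and 10.60 ± 0.08 in control cord (SD, n = 2 each). The log2 difference of Sema4d was -2.66 with a standard error of 0.10 in the limma fit over all clusters, or 6.31-fold lower in Sip1 cKO cord. The nearest arrays of the groups were 2.55 apart on the log2 scale, and the larger of the gaps within a group was 4.13% of the difference.

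Plxnb3 read 6.08 and 6.37 in the Sip1 cKO arrays, against 9.93 and 10.49 in the control arrays. The groups again did not overlap, and here the control arrays stood further apart than the Sip1 cKO arrays. The mean was 6.22 ± 0.20 in Sip1 cKO cord and 10.21 ± 0.40 in control cord (SD, n = 2 each). The log2 difference of Plxnb3 was -3.99 with a standard error of 0.23, or 15.9-fold lower in Sip1 cKO cord. It ranged from -4.41 to -3.56 over the 4 pairs of a Sip1 cKO and a control array, and the larger gap within a group was 14.1% of the difference. The files used here give no detection call, so whether the Sip1 cKO values of Plxnb3 lie above background was not analysed here.

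**Figure D1:**
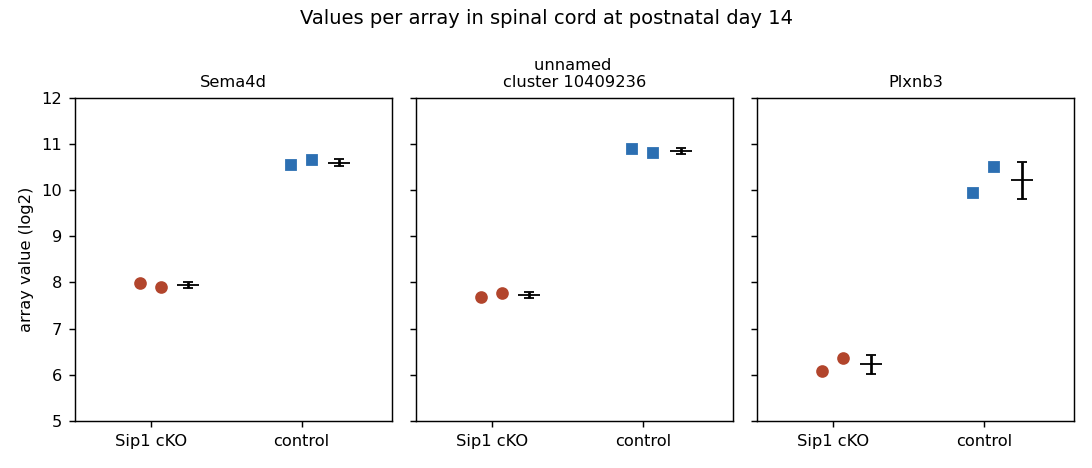
Array values on the log2 scale of Sema4d, the unnamed cluster 10409236 and Plxnb3 in the 2 Sip1 cKO arrays (circles) and the 2 control arrays (squares), with the group mean and SD as a dash and bars beside them. In each panel both Sip1 cKO arrays lie below both control arrays, with the widest spread in the control arrays of Plxnb3, at 9.93 and 10.49.

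Within the differences over all 35557 clusters, ordered from the lowest, Plxnb3 stood at place 15 and Sema4d at place 52. The receptor had the larger difference by 1.33 on the log2 scale. The ranges over pairs of arrays did not overlap, since Sema4d lay between -2.76 and -2.55. The difference between the genes was not tested, as both were chosen by this contrast. At an adjusted p under 0.05 in limma (Benjamini-Hochberg over all clusters), both genes were among the lower calls, which made up 0.858% of all clusters, 305 of them, while calls in either direction made up 1.08%. Both Sip1 cKO arrays lay below both control arrays for 25.1% of all clusters, these genes included. The authors' fold threshold had already selected both genes on this contrast, so nothing is read from these counts. Without control replicate 1 the difference was -2.71 for Sema4d and -4.27 for Plxnb3, and without control replicate 2 it was -2.60 and -3.71. Fits with an array left out keep 1 array in a group, so no calls of these genes are read from them.

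The authors' deposited table gave Sema4d a group intensity of 259 in Sip1 cKO and 1559 in control, on a linear scale, and a fold of 6.01. It gave Plxnb3 a group intensity of 89 in Sip1 cKO and 1222 in control and a fold of 13.6. By the fold of the authors' deposited table Plxnb3 was at place 15 and Sema4d at place 42 of the 398 clusters higher in control. The lowest fold in the authors' deposited table was 1.45, so that both genes stood well inside its threshold.

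The neighbouring cluster 10409236 is a row of the authors' deposited table with an empty symbol field. It read 7.68 and 7.77 in the Sip1 cKO arrays, against 10.89 and 10.81 in the control arrays. As for Sema4d, the groups did not overlap and the arrays of a group lay close together. The mean was 7.72 ± 0.06 in Sip1 cKO cord and 10.85 ± 0.06 in control cord (SD, n = 2 each), a log2 difference of -3.13 with a standard error of 0.10, or 8.74-fold lower in Sip1 cKO cord. This difference was 0.47 further from 0 than that of Sema4d. The order of the replicates ran the other way: among the Sip1 cKO arrays replicate 2 was the higher one for the cluster and the lower one for Sema4d, and among the control arrays replicate 2 was the lower one for the cluster and the higher one for Sema4d. After each was centred on its own mean, the cluster and Sema4d differed by a root mean square of 0.25 over the 4 arrays, and 29 named genes were closer to Sema4d than that. The cluster is not assumed to measure Sema4d.

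The gaps between replicates played no part in how the genes were chosen. For Sema4d, replicate 2 minus replicate 1 was -0.10 among the Sip1 cKO arrays and 0.11 among the control arrays. These gaps were of ordinary size, since 47.0% of all clusters had a smaller one among the Sip1 cKO arrays and 38.3% among the control arrays. They depended on the scaling, at -0.06 among the Sip1 cKO arrays and 0.16 among the control arrays after median centring, and at -0.11 and 0.07 after a second quantile normalization. For Plxnb3 the gap was 0.29 among the Sip1 cKO arrays and 0.56 among the control arrays, and 84.3% and 93.7% of all clusters had smaller ones in these groups. The higher reading of Plxnb3 in control replicate 2 was shared by most named genes: 303 of the 369 read higher in that array than in control replicate 1, with a median gap of 0.24. Over all clusters the median of that gap was -0.02.

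**Figure D2:**
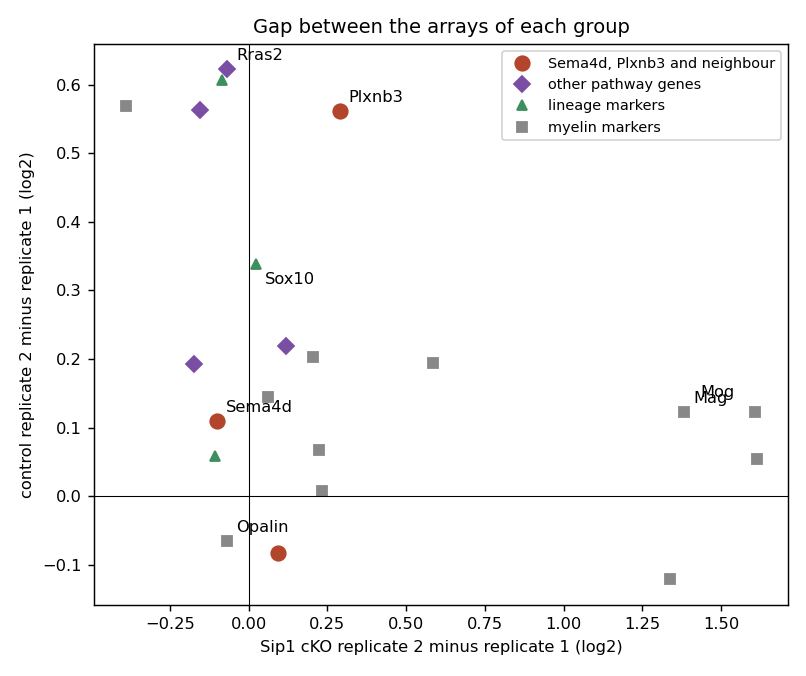
Replicate 2 minus replicate 1 on the log2 scale among the Sip1 cKO arrays (horizontal) and among the control arrays (vertical), 1 point per gene. Sema4d lies near the origin at -0.10 and 0.11, Plxnb3 lies at 0.29 and 0.56, and Mog and Mag lie far to the right, at 1.61 and 1.38 on the horizontal axis.

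Markers of oligodendrocytes moved with both genes. Of 12 markers of myelinating oligodendrocytes 11 were named, all 11 fell (limma, adjusted p under 0.05, against 0.858% of all clusters), and their differences ran from -6.32 to -1.97 with a median of -5.40. With the replicate number as a block 9 of the 11 passed, without Mobp and Cldn11. Fits with an array left out keep 1 array in a group, so no calls of the markers are read from them. Their summed linear values were 2440 and 3294 in the Sip1 cKO arrays, against 51363 and 55172 in the control arrays. None was at 0, as the array gives a value for every cluster. The markers were named through the same table as Sema4d and Plxnb3, which was chosen by fold on these arrays. Neither their direction nor their calls are independent of that selection, and nothing is read from their count. For 361 of the 369 named genes both Sip1 cKO arrays lay below both control arrays. In whole cord, fewer oligodendrocytes and less RNA of a gene per oligodendrocyte cannot be told apart.

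Both genes stood inside the range of the myelin markers. The difference of Sema4d, -2.66, lay between that of Aspa, the aspartoacylase of oligodendrocytes, at -1.97, and that of Cnp, an enzyme of non-compact myelin, at -2.84, and 10 of the 11 markers were lower than it. The difference of Plxnb3, -3.99, lay between that of Ugt8a, which makes the myelin lipid galactosylceramide, at -3.65, and that of Fa2h, which hydroxylates myelin fatty acids, at -4.50, with 8 of the 11 markers lower. Over pairs of a Sip1 cKO and a control array, Sema4d (-2.76 to -2.55) overlapped with Cnp (-2.98 to -2.69) and not with Aspa (-2.07 to -1.86). Plxnb3 (-4.41 to -3.56) overlapped with both Ugt8a (-3.85 to -3.44) and Fa2h (-4.88 to -4.11). These differences between genes were not tested. The 3 named genes that mark the lineage at all stages had smaller differences than Sema4d and Plxnb3. Sox10, a transcription factor present throughout the lineage, was at -2.12, Olig1 at -0.92 and Olig2, which specifies the lineage, at -0.83, where Sox10 and Olig2 passed the threshold and Olig1 did not. Olig2 no longer passed after median centring, with identical rows tested once or with the replicate number as a block. Calls of these genes are not read from fits with an array left out.

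The Sip1 cKO arrays stood far apart for some myelin genes and close together for Sema4d. Mog, the myelin oligodendrocyte glycoprotein, read 5.74 in Sip1 cKO replicate 1 and 7.35 in Sip1 cKO replicate 2, a gap of 1.61, and Mag, an adhesion protein of the inner sheath, had a gap of 1.38. The gap of Sema4d among the Sip1 cKO arrays was smaller in size than that of 9 of the 11 myelin markers, and that of Plxnb3 was smaller than 6 of them. Opalin, a glycoprotein of mature oligodendrocytes, had a gap of -0.07, but at 4.52 and 4.45, below the array medians of 6.62 to 6.70. Whether these values lie above background was not analysed here. Aspa, at 7.85 and 7.92, had a gap of 0.06. Of the 11 myelin markers 9 read higher in Sip1 cKO replicate 2, by gaps that differed in size. The part of this difference between the mutant samples in any result on Sema4d or Plxnb3 was not tested. No marker of progenitors, astrocytes, microglia, neurons, endothelial cells or T and B cells, the last of which also carry Sema4d, was named, and these lists were not analysed here.

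**Figure D3:**
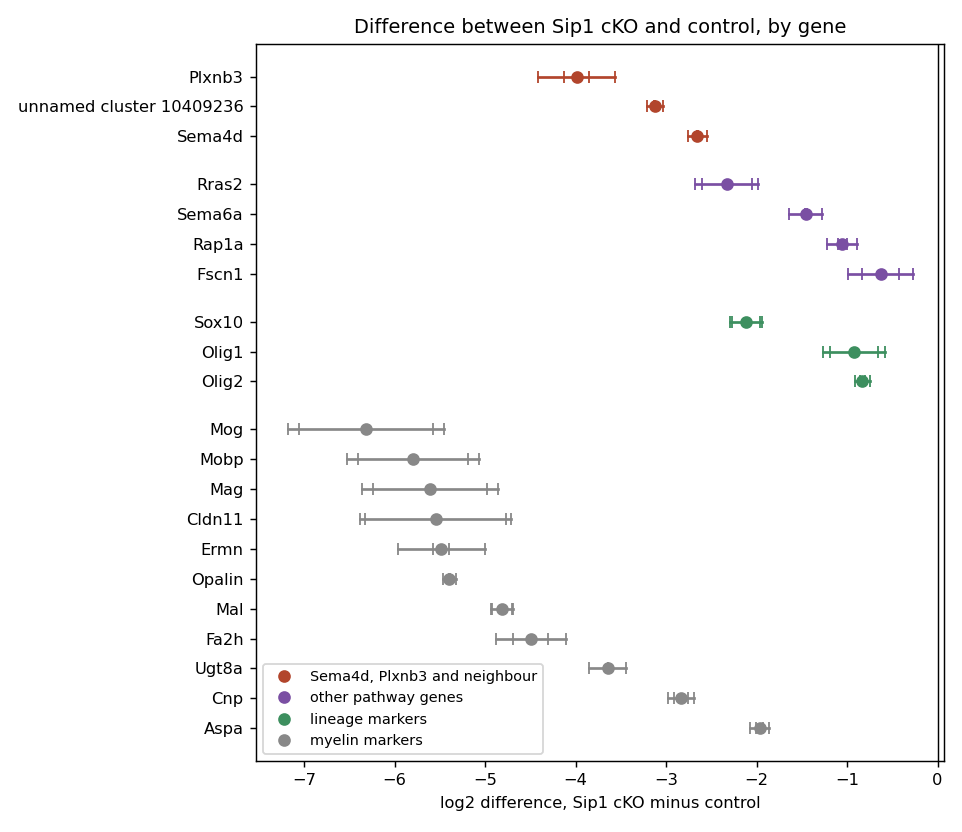
Log2 difference, Sip1 cKO minus control, of Sema4d, Plxnb3 and the neighbouring cluster, of the other named pathway genes, and of oligodendrocyte markers. Points give the difference of the group means, and ticks with their line give the 4 differences between single Sip1 cKO and control arrays. Plxnb3, at -3.99, and Sema4d, at -2.66, lie below the 3 lineage markers and within the range of the myelin markers.

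Of 69 genes on a list of semaphorins, plexins, other receptors, effectors and releasing proteases, 6 were named, Sema4d and Plxnb3 among them. Of these, 5 were lower past the limma threshold (against 0.858% of all clusters), 0 were higher and 1 did not pass. With the replicate number as a block 2 of the 6 passed, Sema4d and Plxnb3. Calls of the 6 are not read from fits with an array left out. The 4 besides Sema4d and Plxnb3 had a median log2 difference of -1.26, against -0.01 over all clusters and -1.29 over the 369 named genes. A gene reached this count only if the authors' fold threshold had let it into their table. The other 63 genes of the list were therefore not analysed here, and neither the calls nor the direction are independent evidence.

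Among 20 ligands the only one named besides Sema4d was Sema6a, a membrane-bound semaphorin that binds plexins of the A class. Sema6a read 9.70 and 9.52 in the Sip1 cKO arrays, against 10.97 and 11.16 in the control arrays. The groups did not overlap, and the log2 difference of -1.46 with a standard error of 0.12 (2.75-fold lower in Sip1 cKO cord) passed the threshold. With the replicate number as a block Sema6a did not pass. Both named ligands read lower in Sip1 cKO replicate 2 than in replicate 1 and higher in control replicate 2 than in replicate 1. Of the 369 named genes 223 read higher in Sip1 cKO replicate 2 and 303 in control replicate 2, so nothing is read from this order. Among 9 plexins Plxnb3 was the only one named. Plxnb1, the main receptor of Sema4d, Plxnb2 and Sema5a, the ligand of plexin B3, were not named and were not analysed here. None of the 7 neuropilins and other receptors and none of the 3 proteases was named.

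Among 30 intracellular effectors 3 were named. Rras2, a GTPase of the R-Ras family on which plexins act, read 7.32 and 7.25 in the Sip1 cKO arrays, against 9.30 and 9.92 in the control arrays. It fell by 2.33 on the log2 scale. Rras2 was also on the list of markers of newly formed oligodendrocytes, and what its fall reflects was not tested. Rap1a, a Rap GTPase, was the name of a pair of clusters: that with the higher mean fell by 1.05, and the other, 10563641, fell by 1.41. Whether both measure Rap1a was not analysed here. The cluster with the higher mean no longer passed after median centring of the arrays, nor with identical rows tested once. With the replicate number as a block neither this cluster nor Rras2 passed. The groups did not overlap for either gene, and control replicate 2 was the higher control array for both, as for 303 of the 369 named genes. Fscn1, the actin-bundling protein fascin, read 10.83 and 10.68 in the Sip1 cKO arrays, against 11.10 and 11.67 in the control arrays. Its difference of -0.63 with a standard error of 0.21 did not pass, and the gap between its control arrays was 89.7% of that difference.

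The named genes most like Sema4d and Plxnb3 were found by the smallest root mean square difference over the 4 arrays after each gene was centred on its mean, over 357 candidate genes without clone or model names. With 4 arrays in 2 groups this measure rests mainly on the size of the group difference. For Sema4d these genes were Prr5l, which binds a kinase complex of the mTOR pathway, with a root mean square of 0.05, Cers2, the synthase of very long chain ceramides, with 0.06, Tmem63a, a mechanosensitive ion channel, with 0.08, Ndrg1, a protein of myelinating cells, with 0.09, and Gamt, an enzyme of creatine synthesis, with 0.10. Their log2 differences lay between -2.82 for Tmem63a and -2.49 for Ndrg1. Prr5l, the closest, read 5.85 and 5.86 in the Sip1 cKO arrays, against 8.52 and 8.61 in the control arrays.

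For Plxnb3 the closest was Adamts4, a protease that cleaves matrix proteoglycans, with a root mean square of 0.09. Adamts4 read 6.12 and 6.21 in the Sip1 cKO arrays, against 9.96 and 10.56 in the control arrays, so that it shared with Plxnb3 the wide gap between the control arrays. Anln, the actin-binding protein anillin, followed with 0.10, Gsn, the actin-severing protein gelsolin, with 0.14, Tmem88b, a membrane protein, with 0.15, and Nipal4, a relative of magnesium transporters, with 0.17. Their log2 differences lay between -4.10 for Adamts4 and -3.67 for Nipal4. Sema4d and Plxnb3 were not close to each other by this measure, with a root mean square of 0.70: Plxnb3 was at place 170 of 368 named genes ordered by closeness to Sema4d, and Sema4d at place 36 of those ordered by closeness to Plxnb3.

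**Figure D4:**
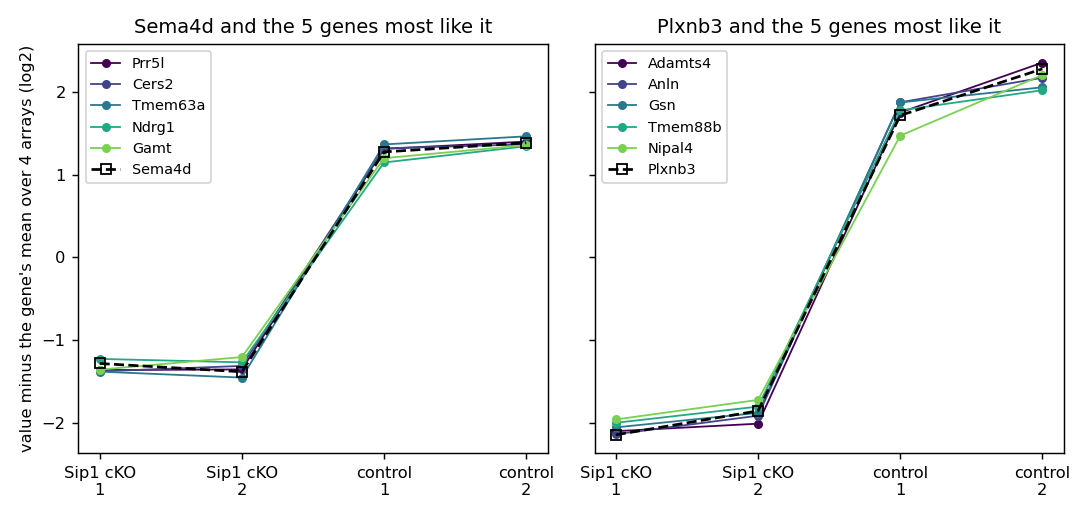
Log2 value minus the mean of each gene over the 4 arrays, for Sema4d (left, dashed) and Plxnb3 (right, dashed) with the 5 named genes most like each. Lines join the values of 1 gene and have no meaning between arrays. The genes beside Sema4d are nearly level within each group, and Adamts4 and Nipal4 share with Plxnb3 the higher value in control replicate 2.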

How the data were processed

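The authors' deposited array values are log2 values from RMA, as the submitters' processing notes name it. This method subtracts background, makes the arrays' distributions alike and combines the probes of a cluster, so it hides any shift common to most clusters. The values ran from 1.71 to 14.52 and were not normalized again, and array medians lay between 6.62 and 6.70. Per the file headers the authors' deposited table holds MoGene-1_0-st-v1 clusters whose raw expression lay above the lowest 10 percent, with the fold (higher over lower group), group values as linear intensity, and log2 values after an undescribed centring. The arrays' annotation and genome build are not given in the sources used here.

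Genes were named through the 375 of 420 table rows with 1 symbol, which gave 369 genes. Symbols were updated through RefSeq names of GRCm38.p6: 323 were current, 37 were updated by accession, 8 by an older symbol, and 7 were kept. Of a gene's clusters the one with the highest mean was used. Limma 3.58.1 in R 4.3.3 (lmFit, eBayes, two-sided) was fitted to all 35557 clusters, with no term besides group, and tested on simulated data. Members and lists were chosen with earlier results of these data known. The rule for named genes took Sema4d, Plxnb3, clusters within 10 of the Sema4d identifier, Zeb2, named genes of the lists (1 marker is not reported here) and the 5 genes most like each member. With 2 arrays against 2 an exact permutation test cannot give a two-sided p under 0.333. The number of arrays limits the precision. Alternatives were other scalings, each array left out, the replicate number as a block, a filter on dim clusters and an eBayes trend.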

Additional observations from a re-analysis of the deposited data

How the results depend on the processing

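The log2 differences of Sema4d and Plxnb3 kept their direction in every setting run. Leaving out an array cannot move a difference beyond the spread between replicates, as both rest on the same gaps. The block, the trend and the settings that drop clusters leave it unchanged. Median centring gave -2.62 for Sema4d and -3.95 for Plxnb3, and a second quantile normalization gave -2.66 and -3.96. For both genes these moves, and those of the authors' deposited table, were smaller than that spread. With each array left out in turn, that of Sema4d ranged from -2.71 to -2.60, that of Plxnb3 from -4.27 to -3.71 and that of cluster 10409236 from -3.17 to -3.08. The authors' deposited table gave -2.59 for Sema4d, -3.77 for Plxnb3 and -3.06 for the cluster, the last a move beyond its replicate spread. The background count of 383 clusters past the limma threshold (1.08% of all) was less stable: 894 passed with the filter on dim clusters, 603 with an eBayes trend, and 818 without the 6624 lowest identifiers. Identical rows tested once left 293. The last pair of settings was chosen after seeing the data. With each array left out it was 0 to 60. It was 0 in limma without control replicate 1, where an unadjusted p under 0.05 was reached by 2949 lower and 2611 higher ones, and 0 without control replicate 2, where it was reached by 3527 and 3069. The median of the 6 pathway genes stayed between -2.10 and -1.69 with each array left out, and their calls are not read from those fits. Replicate numbers were not taken as pairs, since the labels do not say that they mark a litter. Deviations from the group mean correlated weakly between same-numbered arrays (r = 0.08 across clusters), which does not settle whether they were paired. With the replicate number as a block 111 clusters passed, and of the pathway genes 2, Sema4d and Plxnb3. Their differences, -2.66 and -3.99, were as without the block.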

Other observations

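Of 49 genes of other axon guidance systems 4 were named, again only through the authors' table, which was chosen by fold on these arrays. Unc5b, a netrin receptor, read 6.71 and 6.58 in the Sip1 cKO arrays, against 8.45 and 8.86 in the control arrays, and fell by 2.01 on the log2 scale. Efnb3, a membrane-bound ephrin that in spinal cord acts as a midline barrier and in myelin inhibits axon growth, read 7.96 and 7.98 in the Sip1 cKO arrays, against 9.42 and 9.88 in the control arrays, and fell by 1.68. Ephb1, a receptor of B-class ephrins, had a log2 difference of -1.24 and did not pass. Mag, which inhibits axon growth as well as holding the sheath to the axon, fell by 5.61. So 3 of the 4 passed as lower, against 0.858% of all clusters, and nothing is read from this count. With the replicate number as a block only Mag passed. With the filter on dim clusters, an eBayes trend or the lowest identifiers left out Ephb1 passed too. Calls of the 4 are not read from fits with an array left out. For all 4 the groups did not overlap, as for 361 of the 369 named genes, while for 25.1% of all clusters both Sip1 cKO arrays lay below both control arrays. Control replicate 2 read above control replicate 1 for all 4, as for 303 of the 369 named genes, Sema4d and Plxnb3 among them.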
